A study of Homo sapiens with 6 samples.

Results

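HMOX1 and 9 other genes of heme breakdown and iron handling were followed in the human hepatic stellate cell (HSC) line LX-2. The 10 genes were HMOX1, HMOX2, BLVRA, BLVRB, FTH1, FTL, TFRC, SLC40A1, FLVCR1 and BACH1, out of 60780 rows in the gene table, and each was found there by its symbol with an Ensembl identifier. HMOX1 was chosen by its difference between the media in these same libraries, and the other genes by their role beside it, so the differences below are a description of these 10 genes and no p-value is given for any of them. LX-2 cells, an established line, were kept for 24 h in conditioned medium (CM) of HCT116 cells, an established colorectal cancer line. The CM came from HCT116 cells infected with empty lentiviral vector (Vector-CM, n = 3) or with lentivirus for overexpression of FGFBP1, a secreted protein that binds fibroblast growth factors (FGFBP1-CM, n = 3). Both HCT116 derivatives had been selected with puromycin as stable lines, and the vector backbone also carried EGFP and puromycin resistance. The libraries serve the question of what changes in stellate cells when the tumor cells that condition their medium make more FGFBP1.

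Heme oxygenases open the heme ring and release iron, carbon monoxide and biliverdin, and biliverdin reductases turn biliverdin into bilirubin. HMOX1 encodes the inducible oxygenase and HMOX2 the constitutive oxygenase. BACH1 is a heme-binding repressor that occupies the HMOX1 enhancers with small MAF proteins and leaves them when heme rises, while the activator NRF2 uses the same elements. Freed iron is held in ferritin shells or leaves the cell through ferroportin, and transferrin receptor brings iron in. In liver, stellate cells take part in fibrosis, and heme oxygenase is known there as a stress-induced enzyme.

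The messages for ferritin, ferroportin and transferrin receptor are also controlled after transcription, through a short RNA hairpin bound by iron regulatory proteins. Bound near the start of a message the proteins block translation, and bound behind the coding sequence they protect the message from decay. These hairpins are shown because they mark which of the 10 genes have a route of control by iron that RNA levels report for TFRC but not, in the main, for the ferritins or ferroportin. The hairpin was searched on the sense strand of GENCODE 29 transcripts (GRCh38) as a bulged C, 5 base pairs, a 6-base loop spelled CAGTGN in which N is any base but G, and at least 4 of 5 pairs below the bulge, with G-U pairs allowed. Each line gives the transcript strand 5′ to 3′ in DNA letters, with the bulged C and the loop in capitals.
FTH1, 5′ UTR, chr11:61967575-61967601, minus strand: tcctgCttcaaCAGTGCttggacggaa
FTL, 5′ UTR, chr19:48965336-48965362, plus strand: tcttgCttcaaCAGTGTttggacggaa
SLC40A1, 5′ UTR, chr2:189580662-189580688, minus strand: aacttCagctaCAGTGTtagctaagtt
TFRC, 3′ UTR, chr3:196050980-196051006, minus strand: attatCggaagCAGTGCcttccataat
TFRC, 3′ UTR, chr3:196050576-196050602, minus strand: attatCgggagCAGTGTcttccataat
TFRC, 3′ UTR, chr3:196050511-196050537, minus strand: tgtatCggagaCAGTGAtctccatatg
TFRC, 3′ UTR, chr3:196050464-196050490, minus strand: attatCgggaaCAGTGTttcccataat

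The pattern was present in transcripts of 20 of 19684 genes with a protein-coding transcript (0.102%), and 4 of the 20 were among the 10 genes described here. FTH1, FTL and SLC40A1 held 1 hairpin each and TFRC held 4. HMOX1, HMOX2, BLVRA, BLVRB, FLVCR1 and BACH1 did not hold these letters in this arrangement. A match describes sequence and does not show that a protein was bound in these cells.

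Library totals ranged from 14003780 to 18508113 counts, and 16707 genes were tested for a difference between FGFBP1-CM and Vector-CM. FGFBP1-CM replicate 1 stood apart from its group. Its chi-square per gene against the other FGFBP1-CM libraries was 8.90 and 8.23, where the other replicate pairs gave 2.62 to 5.09. For named genes, log2 fold changes that moved by over 1.5 times without this library are also given without it. Of 12 stellate cell and myofibroblast markers 9 were tested, and their summed level was 2934 to 3099 CPM (counts scaled to the library total) in Vector-CM and 2333 to 2762 CPM in FGFBP1-CM, although LRAT, which makes retinyl esters in quiescent stellate cells, had no counts. All 10 erythroid markers were under 1 CPM in each library, with HBA1, HBA2, HBG1 and HBG2 at 0, and of 10 macrophage markers CD163, C1QA and VSIG4 were at 0, while 5 were tested and CD14 was highest at 2.06 to 3.58 CPM. The macrophage markers summed to 6.44 to 6.87 CPM in Vector-CM and 6.28 to 8.72 CPM in FGFBP1-CM. Of 15 colorectal epithelial markers 13 were under 1 CPM in each library and CEACAM5 was at 0, while CLDN4 was highest at 6.67 to 10.1 CPM and ELF3 reached 1.45 CPM. The 15 summed to 9.94 to 11.4 CPM in Vector-CM and 9.66 to 12.9 CPM in FGFBP1-CM.

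HMOX1 (ENSG00000100292; GRCh38 chromosome 22, 35380361 to 35394214, plus strand, 6 exon blocks) was higher in each FGFBP1-CM library than in each Vector-CM library, a separation of the groups in this direction that 12.8% of all tested genes had. In bulk RNA a change in the share of cells that express a gene and a change of RNA per cell cannot be told apart. Its level was 12.6, 13.1 and 14.4 FPKM (fragments scaled to gene length and library size) in Vector-CM replicates 1 to 3. In FGFBP1-CM replicates 1 to 3 it was 80.4, 22.6 and 34.1 FPKM. The Vector-CM libraries lay close together, while the FGFBP1-CM libraries differed widely among themselves, with replicate 1 far above the rest and replicate 2 nearest to the Vector-CM level.

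The group means of HMOX1 were 13.4 ± 0.947 FPKM in Vector-CM and 45.7 ± 30.6 FPKM in FGFBP1-CM (SD, n = 3 each). Relative to the Vector-CM mean in CPM, the FGFBP1-CM replicates stood at 5.79-fold, 1.67-fold and 2.50-fold. The log2 fold change of FGFBP1-CM over Vector-CM was 1.74 (SE 0.325, edgeR), and without FGFBP1-CM replicate 1 it was 1.06 (SE 0.122), so the fitted difference went from 3.33-fold to 2.09-fold. The underlying counts of 424 to 3433 per library were well above the counting floor. Within Vector-CM the log2 CPM of HMOX1 spanned 0.23, and within FGFBP1-CM it spanned 1.79, against median spans of 0.200 and 0.261 over all genes tested. A wider span within FGFBP1-CM was found for 46 of the 16707 genes.

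**Figure D1:**
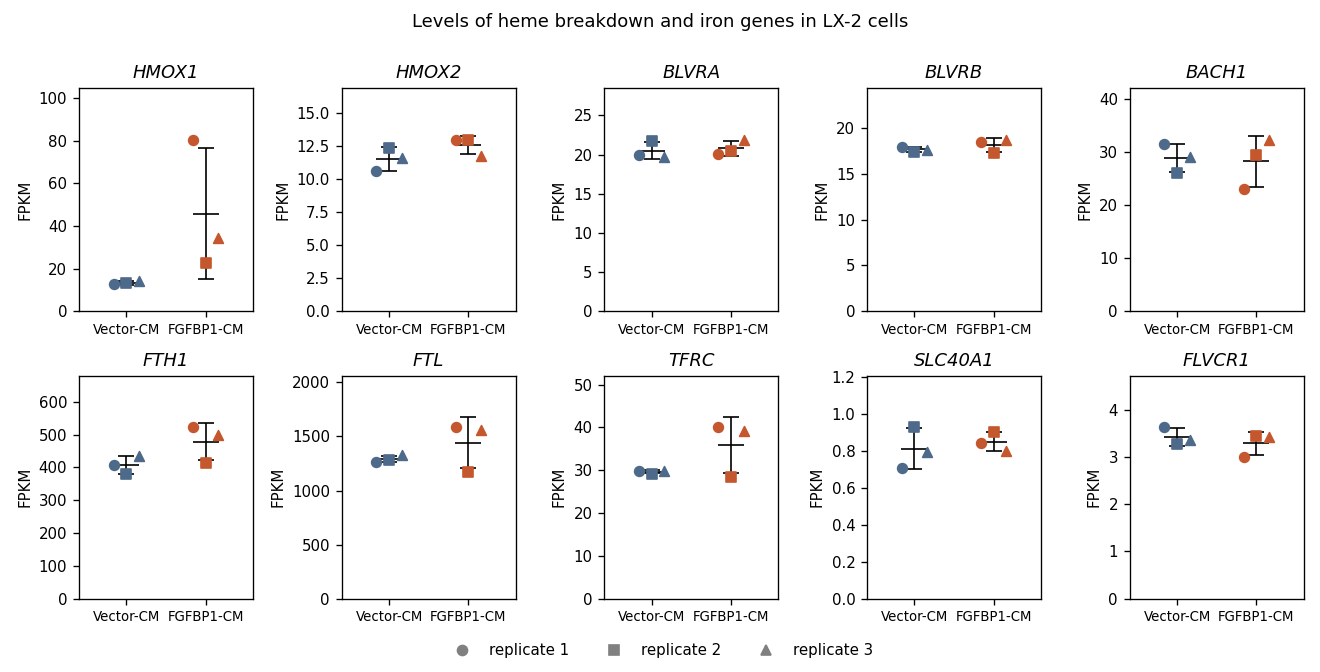
Level of each of the 10 genes in FPKM (vertical axis, from 0, scaled for each gene) in the Vector-CM (blue) and FGFBP1-CM (orange) libraries, with marker shape for the replicate number and black bars for the mean ± SD (n = 3). HMOX1 was the gene whose groups did not overlap, from 12.6 to 14.4 FPKM in Vector-CM and from 22.6 to 80.4 FPKM in FGFBP1-CM, while in the ferritins and TFRC replicate 2 of FGFBP1-CM lay among or below the Vector-CM libraries.

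HMOX2 (ENSG00000103415; chromosome 16, 4474690 to 4510347, plus strand) had a narrower range. It stood at 10.6, 12.4 and 11.6 FPKM in Vector-CM and 13.0, 13.0 and 11.8 FPKM in FGFBP1-CM. The groups overlapped, and the log2 fold change was 0.10 (SE 0.0809). Reads of HMOX2 can also be claimed by NMRAL1, an antisense neighbor that shares 228 bp of exon and had 352 to 600 counts.

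The ratio of the oxygenases was also taken within each library. The FPKM of HMOX1 was 1.06 to 1.25 times that of HMOX2 in the Vector-CM libraries, so both messages were at a similar level. In FGFBP1-CM the ratio was 6.20, 1.74 and 2.89 in replicates 1 to 3, without overlap with Vector-CM. The mean log2 ratio was 1.44 higher in FGFBP1-CM, and 0.949 to 1.86 higher when any single library was left out. HMOX1 was chosen by its difference between these same libraries, which the ratio carries, so nothing is read from this separation or range.

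The biliverdin reductases act on the product of the oxygenases. BLVRA (ENSG00000106605; chromosome 7, 43758680 to 43807342, plus strand) encodes biliverdin reductase A, and BLVRB (ENSG00000090013; chromosome 19, 40447765 to 40465840, minus strand) encodes biliverdin reductase B, which also reduces flavins. BLVRA was 20.0, 21.7 and 19.7 FPKM in Vector-CM and 20.1, 20.4 and 21.9 FPKM in FGFBP1-CM. BLVRB was 17.9, 17.4 and 17.6 FPKM in Vector-CM and 18.4, 17.3 and 18.7 FPKM in FGFBP1-CM. Both genes overlapped between the media, with log2 fold changes of -0.01 (SE 0.0762) for BLVRA and 0.00 (SE 0.0765) for BLVRB, which were 0.03 and 0.01 without FGFBP1-CM replicate 1. The FPKM ratio of BLVRA to BLVRB stayed between 1.09 and 1.24 in the 6 libraries.

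BACH1 (ENSG00000156273; chromosome 21, 29194071 to 29630751, plus strand), the repressor of HMOX1, was 31.5, 26.2 and 29.1 FPKM in Vector-CM and 23.0, 29.6 and 32.4 FPKM in FGFBP1-CM. Its lowest value was in FGFBP1-CM replicate 1, the library with the highest HMOX1, and its highest value was in FGFBP1-CM replicate 3, the library with the next highest HMOX1. The groups overlapped, with a log2 fold change of -0.06 (SE 0.110), which became 0.08 (SE 0.0754) without FGFBP1-CM replicate 1. RNA levels do not report the heme binding or nuclear export by which BACH1 is known to be regulated. A noncoding neighbor on the same strand, LINC00189, shares 302 bp of exon with BACH1 and had 56 to 85 counts.

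FTH1 (ENSG00000167996; chromosome 11, 61959718 to 61967660, minus strand) encodes the ferritin heavy chain, which oxidizes iron for storage, and FTL (ENSG00000087086; chromosome 19, 48965301 to 48966878, plus strand) encodes the light chain. FTH1 was 406, 379.5 and 435 FPKM in Vector-CM and 523, 414 and 498 FPKM in FGFBP1-CM. FTL was 1266, 1286 and 1326 FPKM in Vector-CM and 1588, 1168 and 1564 FPKM in FGFBP1-CM. In both ferritin genes FGFBP1-CM replicates 1 and 3 exceeded every Vector-CM library, but replicate 2 did not, and for FTL it was the lowest of the 6.

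The log2 fold change was 0.20 (SE 0.0857) for FTH1 and 0.12 (SE 0.0963) for FTL, and without FGFBP1-CM replicate 1 it was 0.14 and 0.06. The FPKM ratio of FTH1 to FTL stayed between 0.295 and 0.354 in the 6 libraries. FTH1 has many processed copies, and 18 of the 25 FTH1 pseudogenes in the table had counts, which summed to 3.56% to 4.23% of the FTH1 count. The 16 FTL copies summed to 0.0976% to 0.165% of the FTL count. Reads shared with such copies, or with BEST1, which is antisense to FTH1 over 1267 bp of exon and had 19 to 39 counts, make both ferritin levels somewhat uncertain.

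TFRC (ENSG00000072274; chromosome 3, 196027183 to 196082189, minus strand), the transferrin receptor and the carrier of the 4 hairpins behind its coding sequence, was 29.8, 29.2 and 29.8 FPKM in Vector-CM. In FGFBP1-CM it was 40.1, 28.3 and 39.2 FPKM. The Vector-CM libraries were nearly equal, FGFBP1-CM replicates 1 and 3 were above them, and replicate 2 was below them, so the groups overlapped. The log2 fold change was 0.24 (SE 0.101), or 0.17 (SE 0.0945) without FGFBP1-CM replicate 1. The FPKM ratio of TFRC to FTH1, which bear their hairpins at opposite ends of the message, was 0.0685 to 0.0769 in Vector-CM and 0.0684 to 0.0786 in FGFBP1-CM.

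The exporters had values that overlapped between the media. SLC40A1 (ENSG00000138449; chromosome 2, 189560579 to 189583758, minus strand) encodes ferroportin, the iron exporter, and was the lowest of the 10 genes, with 0.711, 0.931 and 0.795 FPKM in Vector-CM and 0.845, 0.906 and 0.802 FPKM in FGFBP1-CM. It rested on 51 to 66 counts per library, and its log2 fold change of 0.04 had an SE of 0.179, with 0.06 (SE 0.196) when FGFBP1-CM replicate 1 was left out. FLVCR1 (ENSG00000162769; chromosome 1, 212858255 to 212899363, plus strand), named as a heme exporter and also a choline transporter, was 3.64, 3.28 and 3.36 FPKM in Vector-CM and 3.01, 3.45 and 3.42 FPKM in FGFBP1-CM. Its log2 fold change was -0.09 (SE 0.0945), or -0.02 without FGFBP1-CM replicate 1, with overlap between the media and the lowest value in FGFBP1-CM replicate 1.

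Across the 10 genes the mean FPKM of the 6 libraries ran from FTL and FTH1 through TFRC, HMOX1, BACH1, BLVRA, BLVRB, HMOX2 and FLVCR1 down to SLC40A1. The ferritins were the most abundant by far, at 1366 ± 171 FPKM for FTL and 443 ± 56.3 FPKM for FTH1 (SD, n = 6). Neighbors in this order were separate in both media except at HMOX1. HMOX1 and TFRC were separate in Vector-CM but overlapped in FGFBP1-CM. TFRC and BACH1, on either side of HMOX1 in the order, overlapped in both media. They were 29.2 to 29.8 and 26.2 to 31.5 FPKM in Vector-CM, and 28.3 to 40.1 and 23.0 to 32.4 FPKM in FGFBP1-CM. This order pools the media, and the place of HMOX1 in it differed between them, as by group mean it ranked 7 in Vector-CM and 3 in FGFBP1-CM. In Vector-CM every HMOX1 value was below every value of BACH1, BLVRA and BLVRB, whereas in FGFBP1-CM the values of HMOX1 and BACH1 overlapped.

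All 10 genes passed the filter on low counts, and 7 had a log2 fold change above 0 and 3 below. The median of the 10 was 0.07, against 0.00319 for all genes tested. By the edgeR quasi-likelihood test with Benjamini-Hochberg adjustment over all genes, 0 of the 10 passed an adjusted p of 0.05, where 20 of 16707 genes passed (0.120%), 9 of them higher in FGFBP1-CM (0.0539%). At an unadjusted p under 0.05 the count was 3 of the 10 (HMOX1, FTH1 and TFRC) and 3630 of all genes (21.7%). By DESeq2 1 of the 10 passed (HMOX1), where 616 of all genes did, while limma on FPKM gave 0 of the 10. The groups did not overlap for 1 of the 10, against 26.0% of all genes in either direction. Nothing is read from these counts for HMOX1, since this contrast chose it.

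**Figure D2:**
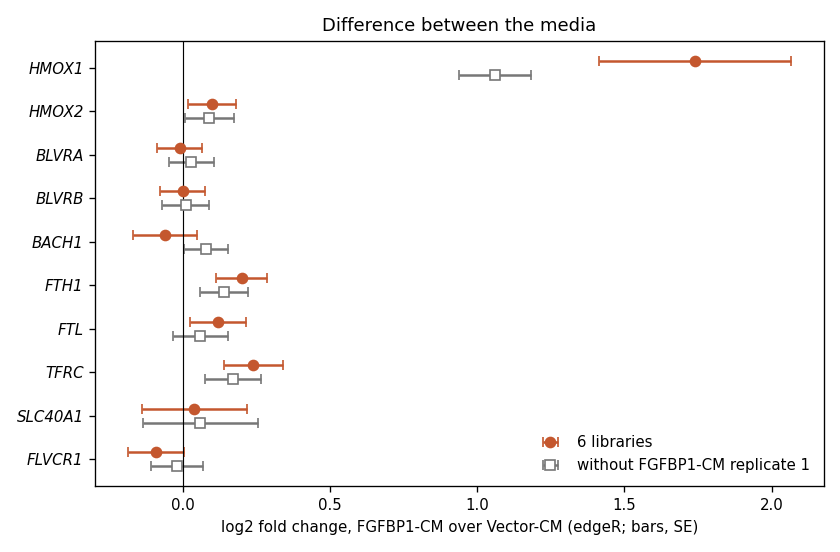
Log2 fold change of FGFBP1-CM over Vector-CM (horizontal axis) for the 10 genes, fitted by edgeR on all 6 libraries (filled circles) and without FGFBP1-CM replicate 1 (open squares), with bars for the SE. HMOX1 lay at 1.74 and 1.06, and the other 9 genes lay between -0.09 and 0.24 in the fit of 6 libraries.

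The libraries of FGFBP1-CM were ordered alike in several of the genes. FGFBP1-CM replicates 1 and 3 were above every Vector-CM library and above FGFBP1-CM replicate 2 for HMOX1, FTH1, FTL and TFRC. This order was found for 4 of the 10 genes and for 13.4% of all genes tested, and it was singled out after the values were seen. FGFBP1-CM replicate 1 was the highest of the 6 libraries for 3 of the 10 and for 29.5% of all genes. In size the genes differed, as FGFBP1-CM replicate 1 exceeded replicate 2 by 1.79 in log2 CPM for HMOX1 but by 0.30, 0.41 and 0.47 for FTH1, FTL and TFRC. A 2-fold or larger excess of replicate 1 over replicate 2 was found for 105 genes. Whether the deviation of this library plays a part in the differences was not tested.

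The genes with the profile most like that of HMOX1 were found by the root mean square difference in log2 CPM over the 6 libraries, after centring each gene on its mean. Among the 13758 other tested genes with an Ensembl identifier, a symbol and a mean of at least 1 CPM, the nearest were HSPA6, CHAC1, PPP1R10, NCOA5 and QRICH2, at 0.269, 0.303, 0.350, 0.385 and 0.388, where the median gene was at 0.932. HSPA6, a heat-inducible member of the HSP70 chaperones, was 1.90, 1.66 and 2.70 CPM in Vector-CM and 14.9, 2.45 and 4.83 CPM in FGFBP1-CM. CHAC1, which degrades glutathione and is induced by the amino acid stress response, was 1.17, 0.796 and 0.943 CPM in Vector-CM and 3.85, 1.44 and 1.96 CPM in FGFBP1-CM. PPP1R10, a nuclear targeting subunit of protein phosphatase 1, was 17.0, 19.5 and 13.9 CPM in Vector-CM and 60.9, 27.4 and 27.8 CPM in FGFBP1-CM. All of these 5 genes had their highest value in FGFBP1-CM replicate 1, as did HMOX1 and 29.5% of all genes tested. They were picked for likeness to HMOX1 over these same libraries, so nothing is read from the shared peak.

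The list of nearest genes depended on that library. When it was left out, the nearest genes were TDO2, NPY5R, QRICH2, GYPE and WASH7P, of which QRICH2 alone was among the first 5. Of the other genes of heme and iron handling described above, TFRC ranked 1236, FTH1 ranked 1768 and FTL ranked 2546 in likeness to HMOX1 over the 6 libraries. BACH1 ranked 11721 and FLVCR1 ranked 10662, toward the far end.

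**Figure D3:**
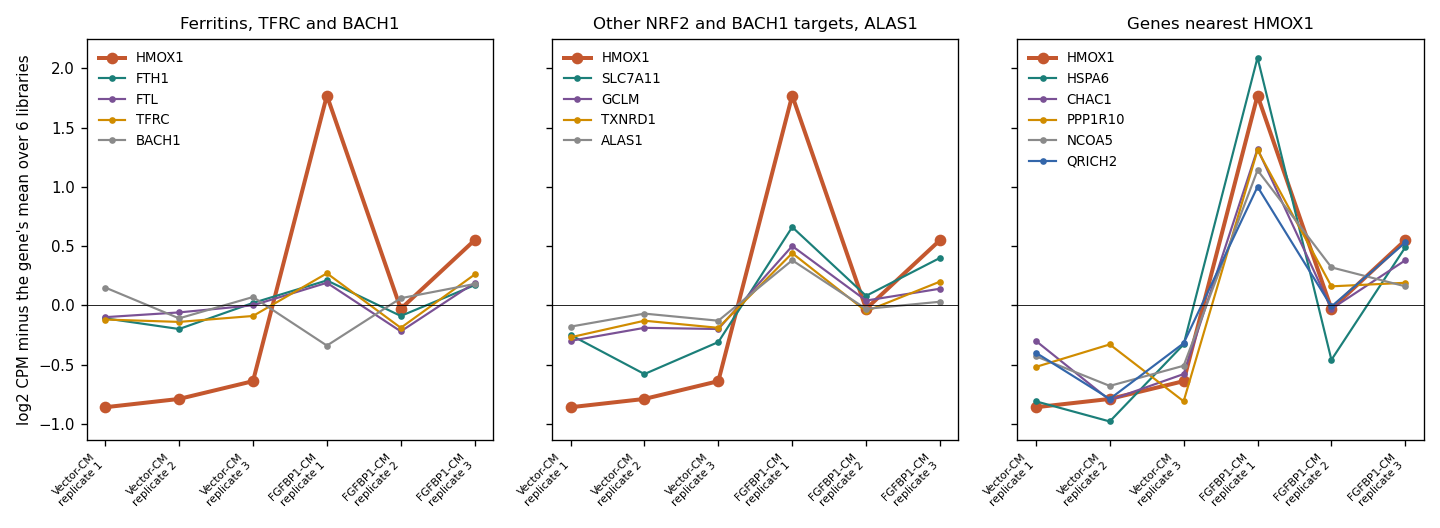
Log2 CPM of each gene minus its own mean over the 6 libraries (vertical axis) by library (horizontal axis), with HMOX1 as the thick line in each panel beside the ferritins, TFRC and BACH1 (left), SLC7A11, GCLM, TXNRD1 and ALAS1 (middle, of which the last 3 were picked after their values were seen) and the 5 genes nearest to HMOX1 (right). HMOX1 stood 1.77 above its mean in FGFBP1-CM replicate 1, where BACH1 was 0.34 below its mean.

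Other genes of the pathway were taken from 8 lists by function, with 93 genes in the table, of which 81 were tested. By the same edgeR test 1 of the 81 passed (SLC7A11, higher), none was called lower, where 0.120% of all genes passed. The call of SLC7A11 was known when the lists were chosen, so nothing is read from this count. An unadjusted p under 0.05 was found for 22 of the 81, against 21.7% of all genes. Of the 81 genes 46 had a log2 fold change above 0, with a median of 0.03, and DESeq2 called 5.

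Heme synthesis, which begins with ALAS1 in non-erythroid cells, had 11 tested genes, of which 0 passed, 8 were above 0 and 3 below. The median log2 fold change was 0.14, and 0.08 without FGFBP1-CM replicate 1. The highest was UROS, uroporphyrinogen III synthase, with 32.4, 31.5 and 34.4 CPM in Vector-CM and 44.8, 36.9 and 37.6 CPM in FGFBP1-CM, a log2 difference of 0.28 that did not pass (adjusted p = 0.105, edgeR) and was 0.19 without FGFBP1-CM replicate 1. The lowest was PPOX, protoporphyrinogen oxidase, at -0.10 (adjusted p = 0.603, edgeR). ALAS1, the rate-limiting enzyme that heme represses, was 74.8, 81.2 and 77.6 CPM in Vector-CM and 110.4, 83.4 and 86.8 CPM in FGFBP1-CM. It was singled out after its values were seen, and its log2 fold change of 0.27 did not pass (adjusted p = 0.138, edgeR) and was 0.13 without FGFBP1-CM replicate 1.

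Heme uptake and transport had 8 tested genes and iron uptake and reduction had 10, with 0 past the threshold in each and medians of 0.02 and -0.01. PGRMC1, a heme-binding membrane protein, had the highest value of its list at 0.23 (adjusted p = 0.150, edgeR), and ABCB6, a porphyrin transporter, the lowest at -0.56 (adjusted p = 0.303, edgeR) on 17 to 54 counts. In the iron uptake list STEAP1, of the metalloreductase family, was at 0.17 (adjusted p = 0.538, edgeR). Without FGFBP1-CM replicate 1 PGRMC1 stood at 0.12 and STEAP1 at 0.06. TF, which encodes transferrin, the plasma iron carrier made by hepatocytes, was 1.62, 1.66 and 1.68 CPM in Vector-CM and 0.211, 0.628 and 0.551 CPM in FGFBP1-CM. The groups of TF did not overlap, as for 26.0% of all genes in either direction. Its log2 fold change of -1.86 did not pass (adjusted p = 0.0557, edgeR) and rested on 4 to 29 counts per library. TF passed in 6 of 15 alternatives, with RLE scaling at an adjusted p of 0.0483 (edgeR) and a range of 2.56e-05 to 0.324 over the 15. The low end came from edgeR with no filter, which called 1382 of all genes, and the next lowest was 0.0161 (edgeR, without FGFBP1-CM replicate 2). The log2 fold change of TF shrank to -0.06 in limma on log2(FPKM + 1). The summed level of 13 hepatocyte markers was 40.3 to 43.3 CPM in Vector-CM and 19.0 to 28.4 CPM in FGFBP1-CM. SERPINA1 was the highest of the 13, at 16.2 to 30.6 CPM over the libraries, and 8 of the 13 were under 1 CPM in every library. Of the 6 markers tested 4 were called lower, where 11 of all 16707 genes were. The part of these markers in the TF value was not tested.

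Iron storage and export had 3 tested genes and iron regulation had 5, with 0 past the threshold and medians of 0.03 and -0.06. PCBP1 and PCBP2 encode chaperones that hand iron to ferritin, and stood at 0.17 and -0.16 (adjusted p = 0.655 and 0.164, edgeR). PCBP1 rested on 30 to 51 counts per library. IREB2, which encodes an iron regulatory protein that binds the hairpins shown above, was 71.7, 54.8 and 61.5 CPM in Vector-CM and 76.2, 67.9 and 70.6 CPM in FGFBP1-CM, with overlap and a difference of 0.19 on the log2 scale (adjusted p = 0.247, edgeR). BMP6, the ligand that drives hepcidin, was at -0.23 on 17 to 38 counts (adjusted p = 0.648, edgeR), or -0.11 without FGFBP1-CM replicate 1. Apart from the genes printed above, 10 genes with the hairpin were tested, and 4 of these had an unadjusted p under 0.05, against 21.7% of all genes. Of all 14 tested genes with the hairpin 0 passed the adjusted threshold in edgeR, and 6 had an unadjusted p under 0.05.

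Mitochondrial iron import and iron-sulfur cluster assembly had 17 tested genes, of which 0 passed, 11 were above 0 and 6 below, with a median of 0.03. SLC25A37, or mitoferrin 1, the importer of iron for heme synthesis, was 459, 436 and 438 CPM in Vector-CM and 338, 371 and 369 CPM in FGFBP1-CM. The groups did not overlap, as for 26.0% of all genes in either direction, and its log2 fold change was -0.30 (SE 0.0641; adjusted p = 0.0568, edgeR). Of the 16 alternatives 5 took it past the threshold, with the Wald test of DESeq2 as 1 of these (adjusted p = 0.00264), and the adjusted p ranged from 0.0023 to 0.242 over the 16. IBA57, a late-acting assembly factor, had the highest value of the list at 0.26 (adjusted p = 0.407, edgeR).

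The partners and regulators of BACH1 had 8 tested genes, of which 0 passed and 6 had an unadjusted p under 0.05, where 21.7% of all genes had one, with a median of -0.13 both with and without FGFBP1-CM replicate 1. MAFF, a small MAF protein that pairs with BACH1 or NRF2 on DNA, was 80.5, 81.8 and 83.8 CPM in Vector-CM and 63.7, 70.9 and 77.5 CPM in FGFBP1-CM, which gave -0.22 on the log2 scale (adjusted p = 0.137, edgeR). The other small MAF genes, MAFG and MAFK, had values of -0.20 and -0.22 (adjusted p = 0.134 and 0.161, edgeR) and also lay without overlap below Vector-CM, and were singled out after their values were seen. CUL3, the ubiquitin ligase scaffold that acts with KEAP1, went the other way and was picked likewise. It was 93.0, 91.2 and 95.9 CPM in Vector-CM and 112, 105 and 108 CPM in FGFBP1-CM, without overlap. Its log2 fold change was 0.21 (adjusted p = 0.0923, edgeR). Of the 8 genes 3 lay without overlap below Vector-CM and 1 above, where 26.0% of all genes did not overlap in either direction. NFE2L2, which encodes NRF2, was also picked after its values were seen. It overlapped between the media, at 0.07 on the log2 scale (adjusted p = 0.644, edgeR). KEAP1, the adaptor that marks NRF2 for degradation, was 17.0, 20.5 and 20.3 CPM in Vector-CM and 29.5, 24.7 and 20.1 CPM in FGFBP1-CM, with overlap and a difference of 0.37 on the log2 scale (adjusted p = 0.138, edgeR). Without FGFBP1-CM replicate 1 KEAP1 stood at 0.22 and MAFF at -0.14.

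Targets of NRF2 and BACH1 other than HMOX1 and the ferritins had 19 tested genes, of which 1 passed, 12 were above 0 and 7 below. The gene that passed, SLC7A11, was known to pass when the list was chosen. The median was 0.06, and 0.00 without FGFBP1-CM replicate 1. SLC7A11, the cystine importer that feeds glutathione synthesis, was 36.5, 29.1 and 35.2 CPM in Vector-CM and 68.7, 46.0 and 57.6 CPM in FGFBP1-CM. It rose by 0.77 on the log2 scale (SE 0.127; adjusted p = 0.0436, edgeR). SLC7A11 was higher in 3 of 3 FGFBP1-CM libraries than in any Vector-CM library, a separation in this direction that 12.8% of all tested genes had. Within FGFBP1-CM its libraries fell in the same order as for HMOX1. Replicates 1 and 3 lay above every Vector-CM library and above replicate 2 for 13.4% of all genes tested. The call was lost without any 1 of the Vector-CM libraries (adjusted p = 0.0976, 0.176 and 0.242, edgeR) and held when FGFBP1-CM replicate 1 was dropped, at 0.62 on the log2 scale (adjusted p = 0.0149, edgeR).

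GCLM, the modifier subunit of the enzyme that starts glutathione synthesis, and TXNRD1, thioredoxin reductase, were singled out after their values were seen. GCLM was 111, 120.2 and 119 CPM in Vector-CM and 194, 141 and 151 CPM in FGFBP1-CM, which gave 0.47 on the log2 scale (adjusted p = 0.0568, edgeR). TXNRD1 was 467, 516 and 497 CPM in Vector-CM and 767, 547 and 649 CPM in FGFBP1-CM, which gave 0.41 on the log2 scale (adjusted p = 0.0680, edgeR). Both were higher in every FGFBP1-CM library than in any Vector-CM library, as were 12.8% of all genes tested. Both were highest in FGFBP1-CM replicate 1, as were 29.5% of all genes tested. Neither passed here, but GCLM did in 5 of 16 alternatives, with DESeq2, with no filter and without any 1 FGFBP1-CM library, and TXNRD1 did in 3, with DESeq2, with no filter and without FGFBP1-CM replicate 2. The adjusted p ranged from 6.58e-08 to 0.242 for GCLM and from 4.52e-07 to 0.250 for TXNRD1 over the 16. Both low ends came from edgeR with no filter, which called 1382 of all genes. The next lowest were 0.00182 for GCLM and 0.00541 for TXNRD1, both by DESeq2. NQO1, a classic NRF2 target, stood at 0.06 on the log2 scale (adjusted p = 0.769, edgeR) and at -0.03 without FGFBP1-CM replicate 1, and TKT, a pentose phosphate enzyme, at -0.30 (adjusted p = 0.0658, edgeR), so the list went both ways.

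**Figure D4:**
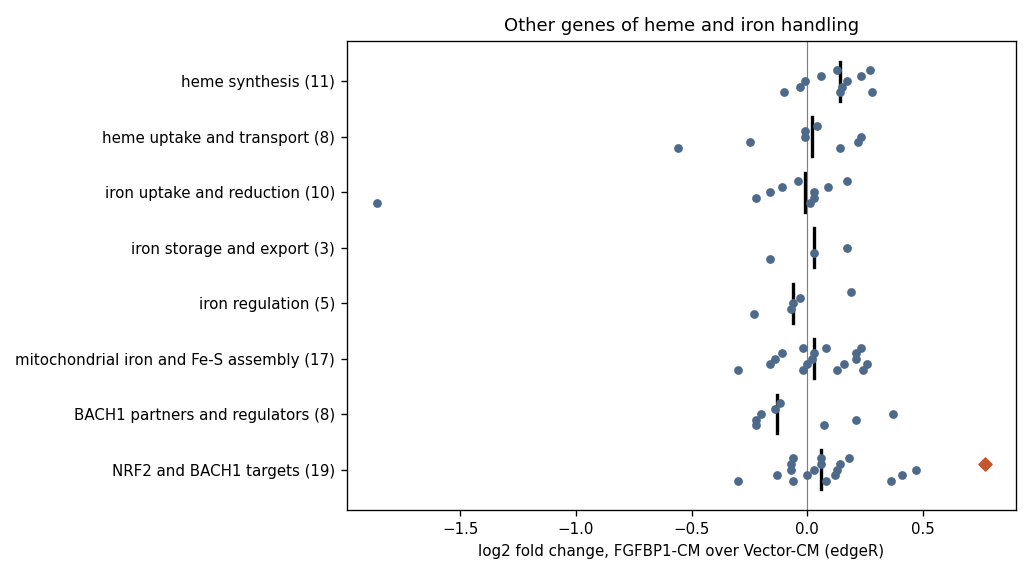
Log2 fold change of FGFBP1-CM over Vector-CM (horizontal axis, edgeR on 6 libraries) for the 81 tested genes of the 8 lists, with the number of tested genes in brackets, black bars for the list medians and the orange diamond for the gene past an adjusted p of 0.05. The medians lay between -0.13 and 0.14, SLC7A11 was the gene past the threshold at 0.77, and TF lay farthest from 0 at -1.86.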

How the data were processed

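RNA-seq of 6 LX-2 libraries was used, with groups taken from GEO labels. Alignment by the authors used HISAT2 2.0.5 on paired-end data, and the raw counts they deposited came from featureCounts 1.5.0-p3, and the FPKM values deposited by the authors beside them were derived from count and gene length. The submitters' processing notes name hg18, the methods name no build, and neither states the annotation release or use of strand. The labels give ribosomal RNA depletion, and the methods also poly(A) selection. Coordinates and hairpins come from GENCODE 29 (GRCh38), matched by Ensembl identifier, and need not be those of the counting build. Without known strand, reads of antisense genes cannot be told apart. Columns of the authors' own comparison were not used.

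Counts were fitted with edgeR 4.0.16 in R 4.3.3 (filterByExpr, TMM, quasi-likelihood F-test, group as the term), with Benjamini-Hochberg adjustment over 16707 genes and a threshold of 0.05. Of 60780 rows, 175 lacked an Ensembl identifier. The SE is the log2 fold change divided by the square root of F. CPM came from edgeR on TMM-scaled totals and, for profiles, on the log2 scale with a prior count of 2. Levels between genes were compared in FPKM only. With totals of 14003780 to 18508113, a floor of 3 counts is 0.162 to 0.214 CPM and covers counting error only. Separate cultures are not stated for the replicates, so p-values measure the spread between these libraries, which may be technical. An exact permutation test of 3 against 3 cannot go below 0.1, so none was used.

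The 10 genes, the lists and the tests were chosen with earlier results of these data known, the value of HMOX1 and the call of SLC7A11 included. All 10 genes are named. A list gene is named where it passed, otherwise the highest and lowest of its list, and the 5 genes nearest HMOX1 are named. Alternatives comprised DESeq2 1.42.0, scaling by RLE or by library size alone, no filter or a mean of at least 1 CPM, limma 3.58.1 on log2(FPKM + 0.1) and log2(FPKM + 1), a replicate block and leaving out each library. A correction for GC content and length (loess, span 0.3) was chosen after seeing the data. The tests were tested on simulated data.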

Additional observations from a re-analysis of the deposited data

How the results depend on the processing

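In the main fit 20 genes passed in all, with 0 of the 10 genes described and 1 of the 81 list genes. In the order all, described and list genes, DESeq2 gave 616, 1 and 5, RLE scaling 38, 1 and 2, and no filter on low counts 1382, 3 and 12. A mean of at least 1 CPM gave 11, 0 and 0, limma on log2(FPKM + 0.1) gave 1, 0 and 0, and limma on log2(FPKM + 1) gave 1, 0 and 0. The correction for GC content and length, chosen after seeing the data, gave 139, 1 and 3, and with the replicate block 88, 1 and 2. The replicate block alone gave 90, 1 and 1. Libraries of equal number correlated in their deviations by -0.094, -0.0265 and 0.111 over 16707 genes, so the numbers were not taken as pairs. Leaving out 1 library gave 4 to 883, 0 to 2 and 0 to 7. The first count was 72, 883 and 402 without FGFBP1-CM replicate 1, 2 or 3, and 6, 4 and 4 without Vector-CM replicate 1, 2 or 3. HMOX1 was the described gene that passed wherever 1 did, with TFRC added without FGFBP1-CM replicate 2 and FTH1 and TFRC with no filter. The log2 fold change of HMOX1 ran from 1.06 to 2.06, which supports nothing, since these libraries chose it. Of 160 alternative values of the 10 genes, that of HMOX1 without FGFBP1-CM replicate 1 moved farthest, from 1.74 (SE 0.325) to 1.06. Some others also moved by more than the SE of the main fit. BACH1 went from -0.06 (SE 0.110) to 0.08 without FGFBP1-CM replicate 1. TFRC went from 0.24 (SE 0.101) to 0.38 without FGFBP1-CM replicate 2. The values of BLVRA, BLVRB, SLC40A1 and BACH1 crossed 0 in some alternatives. NQO1 stood at -0.0349 without FGFBP1-CM replicate 1, below 0, and at up to 0.187 without another library. SLC7A11 passed in 10 of 16, with adjusted p from 1.14e-15 to 0.242. The low end came from edgeR with no filter, and the next lowest was 5.87e-06 by DESeq2. The cause of these shifts was not tested. Among the 10 genes described, depth limits mainly SLC40A1, at 51 to 66 counts. Of the named list genes, TF, ABCB6, BMP6 and PCBP1 rested on fewer, at 4 to 29, 17 to 54, 17 to 38 and 30 to 51 counts.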
